A study of Homo sapiens with 8 samples.

Results

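The genes described are 9 genes of the IL6 family pathway: the cytokines IL6, LIF and IL11, the receptor chains IL6ST, LIFR and OSMR, the transcription factor STAT3, and SOCS3 and PIM1, which lie downstream of it. They were chosen by their function and with their levels in these libraries already known, among them the CPM of each library and the ratios of Acetalax to control and of CE to parental cells. Their values are therefore given as a description and without a test. Each gene was found by its symbol, which gave 9 of 55679 gene identifiers, and all 9 averaged 1 CPM or more over the libraries. CPM is a gene's count per 1000000 counts on all genes of the library.

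RNA-seq was done in MDA-MB468 and BT549, established lines of triple-negative breast cancer (TNBC), that is, of breast cancer with little estrogen receptor, progesterone receptor and HER2. Acetalax (oxyphenisatin acetate) is a former laxative. The question was how its transcript changes look in sensitive cells and in cells that had become resistant. In each line there were parental control cells without drug, parental cells after 1 μmol/L Acetalax for 6 hours, and CE (chronic exposure) cells with and without the same treatment. The CE cells of a line had been passaged in rising concentrations up to 40 μmol/L, are resistant, and were kept without Acetalax for 2 weeks before the experiment. There is 1 CE population per line, so a difference between CE and parental cells cannot be told apart from a difference between these populations.

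Each of the 8 conditions was 1 library, so no difference between libraries has a replicate check. The libraries held 42261122 to 54241728 counts on genes, a 1.28-fold range, and 1 CPM corresponds to 42.3 to 54.2 counts. Intervals are at 95%, Wilson intervals for levels and exact conditional binomial (Clopper-Pearson) intervals for folds. They cover counting error only and leave out variation between libraries of a condition. Amplified reads are not independent molecules, so even counting error may be covered in part only. Folds are ratios of CPM, and log2 ratios were taken after adding 0.5 CPM, which understates the change of genes near that level. The total count sets the scale: with TMM scaling (trimmed mean of M values) the median log2 ratio of all genes in BT549 CE cells was 0.171 higher, at 0.0 instead of -0.171, and in the other pairs it moved by at most 0.076. Counts come from bulk cultures, in which more RNA per cell and more cells with the RNA cannot be told apart.

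MDA-MB468 carried epithelial and BT549 mesenchymal markers. Summed over the epithelial genes EPCAM, CDH1, KRT8 and KRT18, MDA-MB468 libraries had 3363 to 5783 CPM and BT549 libraries 5.38 to 83.3 CPM. The mesenchymal genes VIM, ZEB1, CDH2 and FN1 summed to 15.4 to 55.5 CPM in MDA-MB468 and to 1624 to 3352 CPM in BT549. ESR1 was at most 5.15 CPM and PGR at most 0.627 CPM, while ERBB2 lay between 41.2 and 95.2 CPM. Leukocytes and endothelial cells also make IL6 family cytokines. Of 6 leukocyte genes, CD3E was at 0 in all libraries and PTPRC was at most 0.756 CPM, and the summed level was 6.43 to 47.3 CPM in MDA-MB468, nearly all of it CD14, and 1.49 to 2.99 CPM in BT549. CD14 was lower after Acetalax in both MDA-MB468 backgrounds (47.2 and 20.4 CPM in parental cells, 13.8 and 6.33 CPM in CE cells) and higher in both BT549 backgrounds (0.734 and 2.55 CPM, 1.44 and 1.64 CPM), and its part in the cytokine levels was not tested. Of 3 endothelial genes, 2 were in the table, and VWF and CDH5 summed to 0.925 to 8.18 CPM in MDA-MB468 and to 0.0 to 0.111 CPM in BT549. CDH5 was higher after Acetalax in both MDA-MB468 backgrounds (0.740 and 3.21 CPM in parental cells, 3.90 and 8.01 CPM in CE cells) and at 0 in all BT549 libraries, and its part was likewise not tested.

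Cytokines of the IL6 family are secreted proteins that bind a receptor complex containing the shared chain encoded by IL6ST. IL6 and IL11 need their own alpha receptors, whereas LIF brings IL6ST together with LIFR, and oncostatin M can use OSMR. Janus kinases bound to the receptor then phosphorylate STAT3, which enters the nucleus and switches on target genes. Among these, SOCS3 binds the receptor complex and dampens the signal, which makes it the classical negative feedback of the pathway, and PIM1 is a serine/threonine kinase that favors survival and growth. In breast cancer, IL6 and LIF are known as factors that tumor and stromal cells exchange.

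The promoter windows of IL6, IL11 and PIM1 are shown because these genes were higher with Acetalax in all 4 backgrounds. RefSeq windows (GRCh38.p14, the 250 bases before the start site) matched 8 of the 9 genes, in 11 windows (not LIF). Both strands were searched for TGANTCA (the AP-1 motif), TGACGTCA (CRE), TTCNNNGAA (STAT), TTGCNNAA (C/EBP) and the NF-kB motif, whose matches did not overlap each other, and 5 of the 11 windows held at least 1 of them. Capitals mark the matches.
IL6, chr7:22726950-22727199, plus strand: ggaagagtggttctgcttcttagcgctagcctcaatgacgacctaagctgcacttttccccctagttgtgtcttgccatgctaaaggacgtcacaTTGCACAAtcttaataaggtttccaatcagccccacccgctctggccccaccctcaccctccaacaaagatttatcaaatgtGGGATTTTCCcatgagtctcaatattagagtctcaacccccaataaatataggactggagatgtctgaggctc
IL11, chr19:55370464-55370713, minus strand: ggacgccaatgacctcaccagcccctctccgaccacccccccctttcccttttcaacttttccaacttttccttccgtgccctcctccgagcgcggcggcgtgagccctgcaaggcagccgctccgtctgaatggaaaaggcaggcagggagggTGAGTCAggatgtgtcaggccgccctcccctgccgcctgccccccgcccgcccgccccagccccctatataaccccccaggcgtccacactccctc
PIM1, chr6:37169902-37170151, plus strand: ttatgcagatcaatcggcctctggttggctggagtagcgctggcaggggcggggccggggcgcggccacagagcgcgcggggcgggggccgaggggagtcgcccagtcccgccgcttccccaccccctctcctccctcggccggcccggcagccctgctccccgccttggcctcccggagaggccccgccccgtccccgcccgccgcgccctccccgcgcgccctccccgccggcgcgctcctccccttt
The IL6 window held a C/EBP match from 155 to 148 bases and an NF-kB match from 73 to 64 bases before the start. The IL11 window held an AP-1 match from 96 to 90 bases before the start, and the PIM1 window held no match. Over all 35093 windows of this length, NF-kB letters stood in 0.527%, AP-1 letters in 6.57%, C/EBP letters in 9.05%, STAT letters in 6.57% and CRE letters in 1.65%. STAT letters stood in 2 LIFR windows, C/EBP letters in 1 LIFR window and in the OSMR window, and the windows of IL6ST, STAT3 and SOCS3 held no match. All 11 windows had 1 exact match in GRCh37. They do not all lie at the 5′ end of the gene models given below in hg19. The start site of the IL6 window is 1316 bases downstream of that end. Those of the LIFR windows are 12949, 50887 and 51708 bases downstream, and those of the SOCS3 windows 848 bases upstream and 410 bases downstream. The bases before the 5′ ends of the IL6, LIFR and SOCS3 models were thus not searched as windows of their own. A match of letters is a description of the sequence and no measurement of binding.

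LIF was the most abundant of the 3 cytokines per exon length and was higher with Acetalax in every background. LIF (ENSG00000128342; chromosome 22, 30636436 to 30642840 in hg19, minus strand) encodes leukemia inhibitory factor, a ligand of LIFR and IL6ST. In MDA-MB468 it was at 37.0 CPM in parental control cells, 448 CPM in parental cells with Acetalax, 53.4 CPM in CE control cells and 303 CPM in CE cells with Acetalax. In BT549 the levels were 226, 382, 44.8 and 622 CPM in the same order. All 4 treated libraries were above all 4 controls. Acetalax was accompanied by 12.1-fold more LIF in MDA-MB468 parental cells (interval 11.5 to 12.7), 5.68-fold more in MDA-MB468 CE cells (5.43 to 5.93), 1.70-fold more in BT549 parental cells (1.65 to 1.74) and 13.9-fold more in BT549 CE cells (13.3 to 14.5). The small ratio in BT549 parental cells belonged to the control with the highest LIF level, 6.09-fold above that of MDA-MB468 parental cells (5.79 to 6.41). Without drug, LIF in BT549 CE cells was 5.03-fold lower than in parental cells (4.81 to 5.26), whereas in MDA-MB468 CE cells it was 1.44-fold higher (1.36 to 1.53). The BT549 CE and parental controls also differed in the line's markers. KRT8 was at 34.4 against 1.25 CPM and KRT18 at 47.9 against 6.67 CPM. Of the other epithelial genes, CDH1 was at 0.959 against 0.237 CPM, while EPCAM went the other way, at 0.0369 against 0.189 CPM. VIM was at 864 against 1327 CPM, ZEB1 at 58.5 against 86.1 CPM, CDH2 at 109.5 against 223 CPM and FN1 at 592.5 against 1629 CPM. The part of this difference between the populations in the levels of LIF was not tested. With drug, BT549 CE cells were 1.63-fold above BT549 parental cells (1.60 to 1.66), and MDA-MB468 CE cells were 1.48-fold below MDA-MB468 parental cells (1.45 to 1.51). None of the 8 levels overlapped its neighbor in the order within counting error. An antisense gene, RP1-102K2.8, overlaps LIF on the other strand and had 55 to 366 counts, against 1800 to 31467 for LIF. It was also higher with Acetalax in every background, and its part in the LIF counts was not tested.

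**Figure D1:**
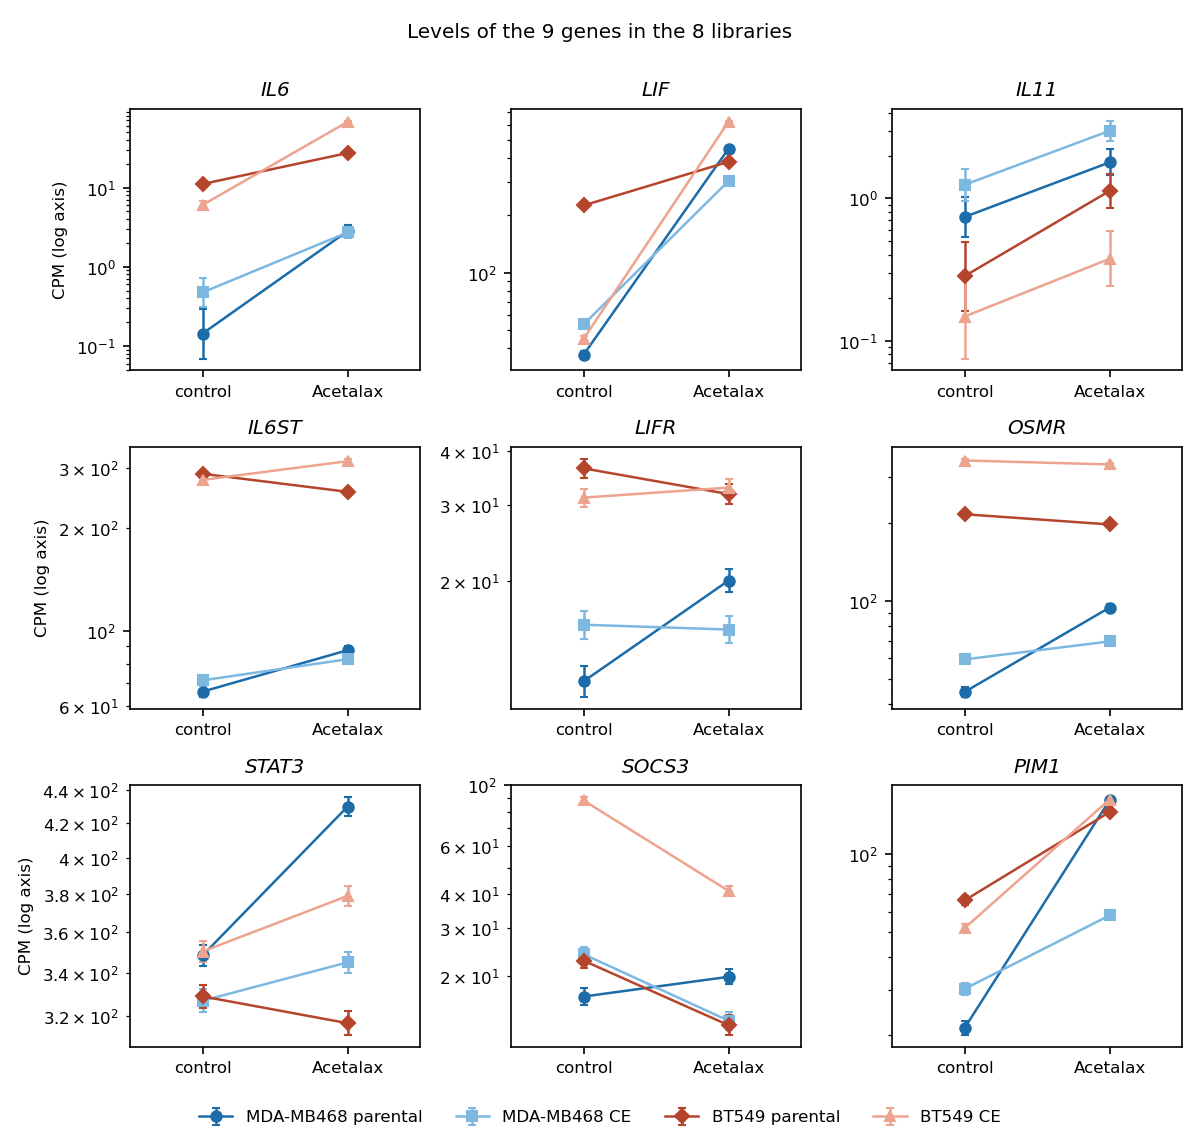
Levels of the 9 genes in CPM on a log axis that differs between panels, in control and Acetalax-treated cells of the 4 backgrounds, with 1 library per point and 95% Wilson intervals as bars. IL6, LIF, IL11 and PIM1 slope upward in all 4 backgrounds, SOCS3 slopes downward in 3, and IL6 and the receptors IL6ST, LIFR and OSMR separate the lines.

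IL6, the family's founding cytokine, was also higher with Acetalax in every background, and its level separated the lines. IL6 (ENSG00000136244; chromosome 7, 22765503 to 22771621 in hg19, plus strand) had 0.144 CPM (7 counts) in MDA-MB468 parental control cells, 2.82 CPM (137 counts) in parental cells with Acetalax, 0.476 CPM (21 counts) in CE control cells and 2.71 CPM (129 counts) in CE cells with Acetalax. In BT549 it had 11.1, 27.2, 6.03 and 67.3 CPM in the same order, from 327 to 3404 counts. The treated library was the higher one in each background, and every BT549 library was above every MDA-MB468 library. The folds were 19.6 in MDA-MB468 parental cells (9.26 to 49.7), 5.70 in MDA-MB468 CE cells (3.58 to 9.53), 2.46 in BT549 parental cells (2.21 to 2.74) and 11.2 in BT549 CE cells (9.96 to 12.5). The first of these rests on 7 control counts, and its log2 ratio after adding 0.5 CPM was 2.37. Among controls, IL6 in CE cells was 3.30-fold above parental cells in MDA-MB468 (1.35 to 9.20) and 1.84-fold below them in BT549 (1.59 to 2.12). The treated MDA-MB468 libraries overlapped each other within counting error, with a ratio of CE to parental of 0.962 (0.750 to 1.23). In BT549 the treated CE library was 2.47-fold above the treated parental one (2.31 to 2.64). The gap between the lines ran from 9.65-fold in treated parental cells (8.08 to 11.6) to 76.9-fold in parental controls (37.0 to 192).

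IL11 was close to the limit of what these libraries measure. It encodes a further IL6ST-dependent cytokine (ENSG00000095752; chromosome 19, 55875757 to 55881831 in hg19, minus strand). MDA-MB468 libraries held 0.740 CPM in parental control, 1.79 CPM in parental Acetalax, 1.25 CPM in CE control and 2.99 CPM in CE Acetalax cells. BT549 libraries held 0.284, 1.13, 0.148 and 0.376 CPM, which is 8 to 49 counts. Again the treated library was higher in every background, by 2.42-fold, 2.40-fold, 3.97-fold and 2.55-fold in the order given, with intervals of 1.62 to 3.67, 1.74 to 3.34, 2.08 to 8.20 and 1.06 to 6.73. In contrast to IL6, IL11 was lower in BT549 than in MDA-MB468, 2.61-fold in parental controls (1.33 to 5.50) and 8.45-fold in CE controls (4.00 to 20.5). Of the 7 neighboring levels in its order, 6 overlapped within counting error, so the order of single libraries is not resolved.

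All 3 receptor chains were higher in BT549 than in MDA-MB468 in every matched condition. IL6ST (ENSG00000134352; chromosome 5, 55230923 to 55290821 in hg19, minus strand), the shared signaling chain, had 66.2, 87.6, 71.5 and 82.5 CPM in MDA-MB468 and 289, 256, 277 and 315 CPM in BT549, in the order parental control, parental Acetalax, CE control and CE Acetalax. BT549 was thus 2.92-fold to 4.36-fold above MDA-MB468 in matched conditions. The log2 ratios of Acetalax to control were 0.40 and 0.21 in MDA-MB468 parental and CE cells and -0.18 and 0.18 in BT549 parental and CE cells.

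LIFR, the chain that gives LIF its specificity, was also higher in BT549. The gene (ENSG00000113594; chromosome 5, 38475065 to 38608456 in hg19, minus strand) overlaps LIFR-AS1, which had at most 20 counts. Its levels were 11.8, 20.1, 15.9 and 15.5 CPM in MDA-MB468 and 36.4, 31.8, 31.2 and 32.9 CPM in BT549. The log2 ratio of Acetalax to control was 0.75 in MDA-MB468 parental cells, and between -0.19 (BT549 parental) and 0.08 (BT549 CE) in the other 3 backgrounds. In MDA-MB468 CE cells it was -0.04, and 0.054 with TMM scaling, and neither is beyond counting error.

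OSMR, which pairs with IL6ST to receive oncostatin M, had the widest range of the 3 receptor chains. The gene (ENSG00000145623; chromosome 5, 38845960 to 38945698 in hg19, plus strand) overlaps RICTOR on the other strand at its end, so the counts of both are uncertain if strand was not used (RICTOR had 1457 to 6862 counts). RICTOR had 34.7 CPM in control and 68.6 CPM in treated MDA-MB468 parental cells, where OSMR was also higher with Acetalax, 35.4 and 30.6 CPM in MDA-MB468 CE cells, 82.4 and 158 CPM in BT549 parental cells and 47.1 and 112 CPM in BT549 CE cells, and its part in the OSMR counts was not tested. MDA-MB468 had 44.5 CPM in parental control, 94.1 CPM in parental Acetalax, 59.5 CPM in CE control and 69.8 CPM in CE Acetalax cells. BT549 had 215, 197, 347 and 335 CPM. With Acetalax the level was 2.11-fold higher in MDA-MB468 parental cells (2.01 to 2.22), with a log2 ratio of 1.07, and the log2 ratio was 0.23 in MDA-MB468 CE cells. In BT549 the log2 ratios were -0.13 in parental and -0.05 in CE cells, of which the latter turned to 0.165 with TMM scaling and to 0.152 with median-of-ratios scaling. CE controls were above parental controls in both lines, with log2 ratios of 0.41 in MDA-MB468 and 0.69 in BT549.

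STAT3, the transcription factor that all these receptors feed, had the narrowest range of the 9 genes over the libraries. STAT3 (ENSG00000168610; chromosome 17, 40465342 to 40540586 in hg19, minus strand) had 348, 430, 327 and 345 CPM in MDA-MB468 and 329, 317, 350 and 379 CPM in BT549. The highest of the 8 levels was 1.36 times the lowest, and the log2 ratios of Acetalax to control were 0.30, 0.08, -0.05 and 0.11. These are transcript levels and do not report phosphorylated STAT3, the form that acts.

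The feedback gene SOCS3 and the kinase gene PIM1 differed in opposite directions with Acetalax in 3 of the 4 backgrounds, PIM1 toward higher and SOCS3 toward lower levels. PIM1 (ENSG00000137193; chromosome 6, 37137979 to 37143202 in hg19, plus strand) had 21.3 CPM in MDA-MB468 parental control, 162 CPM in parental Acetalax, 30.2 CPM in CE control and 58.0 CPM in CE Acetalax cells. In BT549 it had 66.3, 146, 51.8 and 163 CPM. The treated library was the higher one in each background, by 7.58-fold in MDA-MB468 parental cells (7.11 to 8.10), 1.92-fold in MDA-MB468 CE cells (1.80 to 2.05), 2.19-fold in BT549 parental cells (2.10 to 2.29) and 3.14-fold in BT549 CE cells (3.01 to 3.28). Treated MDA-MB468 CE cells were 2.78-fold below treated parental cells (2.67 to 2.91). The other 3 treated libraries lay within 146 to 163 CPM, although their controls spanned 21.3 to 66.3 CPM, and the highest 2 overlapped within counting error.

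SOCS3 (ENSG00000184557; chromosome 17, 76352864 to 76356158 in hg19, minus strand) had 16.9 CPM in MDA-MB468 parental control, 19.9 CPM in parental Acetalax, 24.1 CPM in CE control and 13.8 CPM in CE Acetalax cells. In BT549 it had 22.8, 13.2, 88.0 and 41.1 CPM. With Acetalax it was 1.18-fold higher in MDA-MB468 parental cells (1.08 to 1.30) and lower in the other 3 backgrounds, by 1.75-fold in MDA-MB468 CE cells (1.59 to 1.93), 1.72-fold in BT549 parental cells (1.55 to 1.91) and 2.14-fold in BT549 CE cells (2.03 to 2.26). The highest level of all was that of BT549 CE control cells, 3.86-fold above BT549 parental control cells (3.60 to 4.14), and in MDA-MB468 the CE control was 1.43-fold above its parental control (1.30 to 1.57). BT549 CE control cells combined the highest SOCS3 level with the second lowest LIF level of the 8 libraries, and for SOCS3 too the part of the marker differences between these BT549 controls was not tested.

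**Figure D2:**
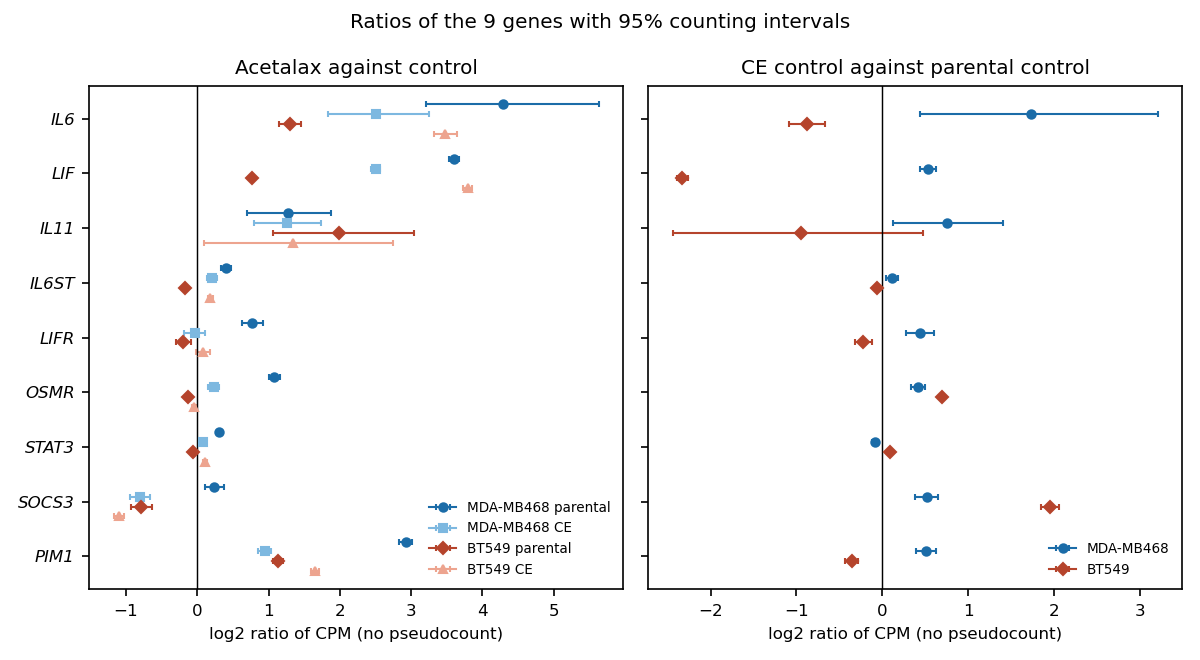
Log2 ratios of CPM without pseudocount for each gene, with Acetalax against control on the left (4 backgrounds) and CE control against parental control on the right (2 lines), 1 pair of libraries per point and 95% counting intervals as bars. LIF in BT549 parental cells, at 0.76, lies apart from the other 3 LIF ratios of 2.51 to 3.80, and SOCS3 and LIF stand at opposite ends of the BT549 panel for CE cells.

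Ratios were counted as past the limit where the log2 ratio with 0.5 CPM added was at least 1 or at most -1. This is a 2-fold limit, and it was applied over the 14030 genes that averaged 1 CPM or more. The addition shrinks ratios at low levels, so some CPM folds above 2 were not counted. Because the genes were chosen with these ratios known, the shares over all genes are printed beside the counts and nothing is read from them. In MDA-MB468 parental cells 4 of the 9 genes were at least 2-fold higher with Acetalax (IL6, LIF, OSMR and PIM1; 3.86% of all genes) and 0 were lower (2.89%). In MDA-MB468 CE cells these were 2 (IL6 and LIF; 1.6%) and 0 (1.78%), in BT549 parental cells 3 (IL6, IL11 and PIM1; 1.3%) and 0 (1.33%), and in BT549 CE cells 3 (IL6, LIF and PIM1; 3.39%) and 1 (SOCS3; 9.68%). Between CE and parental controls, 0 of 9 were higher (1.64%) and 0 lower (1.65%) in MDA-MB468, and in BT549 SOCS3 was higher (6.23%) and LIF lower (4.45%). The 3.30-fold higher IL6 in MDA-MB468 CE controls (7 and 21 counts) had a log2 ratio of 0.599 after the addition, short of the limit. Just outside the limit were IL11 in MDA-MB468 CE cells at 0.998 and PIM1 there at 0.931, and just inside were IL11 in BT549 parental cells at 1.05 and OSMR in MDA-MB468 parental cells at 1.07. With TMM scaling, SOCS3 in BT549 CE cells was no longer past the limit and the count in MDA-MB468 CE cells was 4.

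The 4 backgrounds are separate pairs of libraries, but they come from 2 lines. IL6, LIF, IL11 and PIM1 were higher with Acetalax in all 4, as were 11.8% of all genes. No member was lower in all 4, as were 29.5% of all genes (4135 of 14030). Both shares use total counts as the scale, on which the median log2 ratios of all genes were -0.092, -0.051, -0.088 and -0.171. They were -0.024, 0.025, -0.063 and 0.0 with TMM scaling (MDA-MB468 parental, MDA-MB468 CE, BT549 parental, BT549 CE), for which the shares were not computed. With 0.5 CPM added, IL6 was at least 2-fold higher in all 4, as were 15 of 14030 genes (0.107%). Without this addition the folds of IL11 were also above 2 in all 4 (2.42, 2.40, 3.97 and 2.55), and all genes were not counted that way. By the median of its 4 log2 ratios, LIF stood at rank 2 of 14030 from the highest (3.04), IL6 at rank 16 (2.04), PIM1 at rank 62 (1.39) and IL11 at rank 206 (0.94). IL6ST, STAT3, OSMR and LIFR stood between rank 2372 and rank 4708, and SOCS3 at rank 13541 (-0.77). The median over the 9 genes was 0.194 and over all genes -0.097. Between CE and parental controls, 7 of the 9 genes differed in opposite directions in the 2 lines, as did 45.0% of all genes.

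Whether CE cells differed from parental cells in their ratios was compared within each line, and for 7 of the 9 genes (IL6, LIF, PIM1, IL6ST, LIFR, OSMR and STAT3) the difference was negative in MDA-MB468 and positive in BT549, as it was for 20.3% of all genes. In MDA-MB468 the log2 ratio of LIF (without pseudocount) in CE minus that in parental cells was -1.09 (-1.19 to -1.0), and that of PIM1 differed by -1.98 (-2.11 to -1.85) and that of IL6 by -1.78 (-3.06 to -0.50). In BT549 the same differences were 3.03 for LIF (2.96 to 3.10), 0.52 for PIM1 (0.43 to 0.61) and 2.18 for IL6 (1.96 to 2.41). OSMR and LIFR, which were higher with Acetalax in MDA-MB468 parental cells, had differences of -0.85 (-0.95 to -0.75) and -0.81 (-1.02 to -0.60) in MDA-MB468, and 0.08 (0.03 to 0.13) and 0.27 (0.13 to 0.42) in BT549. The differences of IL6ST and STAT3 were -0.20 (-0.29 to -0.10) and -0.22 (-0.27 to -0.18) in MDA-MB468, and 0.36 (0.31 to 0.41) and 0.17 (0.12 to 0.21) in BT549. For SOCS3 the difference was negative in both lines, -1.05 (-1.24 to -0.85) and -0.32 (-0.48 to -0.15). For IL11 the intervals included 0 in both lines, from -0.73 to 0.70 in MDA-MB468 and from -2.14 to 0.86 in BT549. These intervals compare 4 libraries each and not the conditions. They also leave out the choice of scaling, which changes the differences in BT549. With TMM scaling and 0.5 CPM added, the SOCS3 log2 ratios in BT549 were -0.877 in CE and -0.731 in parental cells. Those of OSMR were 0.165 and -0.098, and those of STAT3 0.329 and -0.022.

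**Figure D3:**
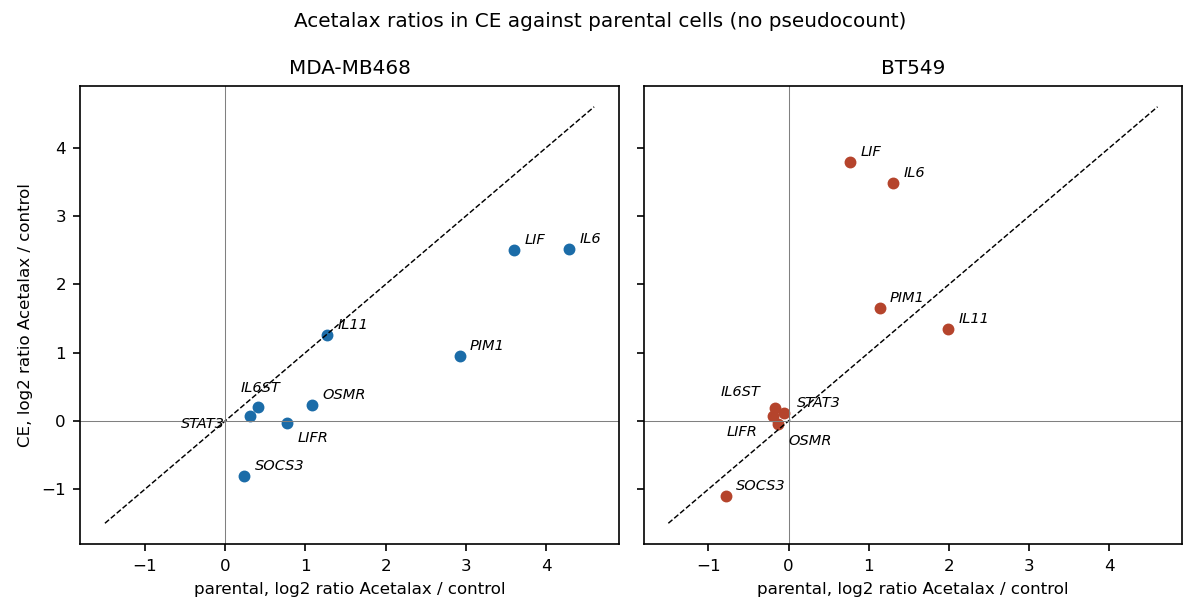
Log2 ratio of Acetalax to control in CE cells (vertical axis) against that in parental cells (horizontal axis), without pseudocount, for the 9 genes in MDA-MB468 (left) and BT549 (right), each point from 4 libraries, with the dashed line at equal ratios. IL6, LIF, PIM1, IL6ST, LIFR, OSMR and STAT3 lie below the line in MDA-MB468 and above it in BT549, OSMR in BT549 by 0.08.

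Ligand and receptor transcripts were set side by side per exon length, as FPKM (CPM per kilobase of merged exons). Merged exons join all annotated transcripts of a gene and can be longer than the transcript in use, by amounts that differ between genes. Comparisons between genes are therefore approximate. LIF was above IL6ST in every treated library and below it in the CE control cells of BT549. In MDA-MB468 parental control cells, LIF was at 9.56 FPKM, IL6ST at 5.49, LIFR at 0.967 and OSMR at 6.21 FPKM. With Acetalax, LIF was at 116 FPKM there and the 3 receptors at 7.27, 1.65 and 13.1 FPKM. In BT549 CE cells LIF went from 11.6 FPKM in control cells, below IL6ST (23.0) and OSMR (48.4), to 161 FPKM with Acetalax, above IL6ST (26.1) and OSMR (46.7). LIFR never exceeded 2.99 FPKM and was below IL6ST and OSMR in every library. LIF exceeded IL6 in every library on this scale, with 58.3 against 2.56 FPKM in BT549 parental controls and 161 against 15.6 FPKM in treated BT549 CE cells. SOCS3 in BT549 CE control cells reached 32.2 FPKM, against 4.84 to 15.0 FPKM in the other 7 libraries.

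**Figure D4:**
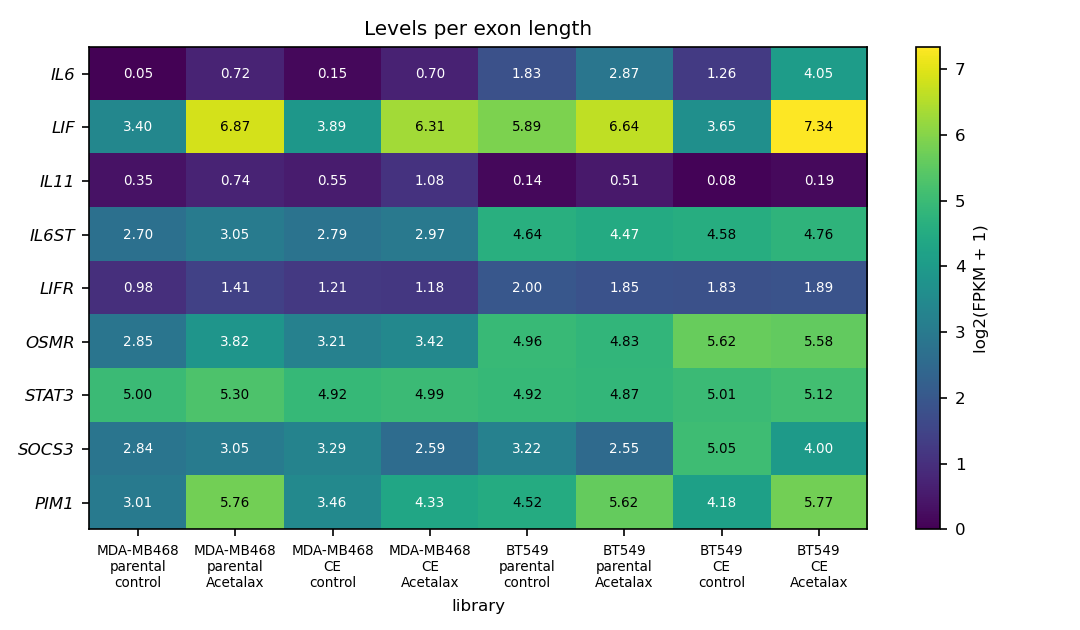
Levels of the 9 genes as log2(FPKM + 1) in the 8 libraries, 1 cell per gene and library, with the value printed in the cell. STAT3 stays between 4.87 and 5.30, while LIF runs from 3.40 to 7.34.

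The genes whose 4 Acetalax ratios lay nearest to those of IL6, LIF, PIM1 or SOCS3 were searched among the 11135 genes averaging 5 CPM or more, by the root mean square difference of the log2 ratios over the 4 backgrounds. Nearest to IL6 were INHBA (0.228), CD274 (0.457) and GADD45A (0.498). INHBA, an activin subunit, had log2 ratios of 2.60, 1.62, 1.40 and 3.02 where IL6 had 2.37, 1.72, 1.26 and 3.38 (MDA-MB468 parental, MDA-MB468 CE, BT549 parental, BT549 CE). Near to LIF were CLCF1 (0.715) and CXCL1 (0.767), so that no gene matched LIF as closely as INHBA matched IL6. Nearest to PIM1 were PPP1R15A (0.204), CDKN1A (0.250) and SH2D5 (0.345), and nearest to SOCS3 were GPR158 (0.140), LRRC8C (0.167) and GRB7 (0.202). With 4 values per gene, this likeness is a description only.

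The rest of the pathway was read from a list of 68 genes, of which 67 were in the table and 61 had enough counts to be tested. This list too was chosen with earlier results of these data known, so calls among its genes are not independent support. The test was edgeR's quasi-likelihood test of Acetalax over the 4 backgrounds, each treated library against the control of its own background, with Benjamini-Hochberg adjustment over 19693 genes. It called 984 genes, 2.72% of those tested as higher and 2.27% as lower, and among the 61 pathway genes 5 rose and 1 fell. The pairs of both lines serve as replicates, so p-values measure the spread between backgrounds. The CE cells of a line were derived from its parental cells, so the 4 pairs are not 4 independent replicates. The p-values can therefore overstate the replication. Without the MDA-MB468 parental pair the test called 0 of all genes, with 3491 at an unadjusted p under 0.05 and a smallest adjusted p of 0.17. None of the 6 calls thus held without that pair. The loss covered all genes and is not particular to these 6, and the fit had 2 residual degrees of freedom instead of 3. At an unadjusted p under 0.05 from edgeR, 11 pathway genes were higher and 6 lower there, against 14 and 7 with all pairs. The lower call, that of BCL3, was also lost without MDA-MB468 CE and without BT549 parental cells, where 0 pathway genes were called lower. Without MDA-MB468 CE, BT549 parental or BT549 CE cells it called 554, 311 and 263 genes, of which 5, 4 and 4 were pathway genes.

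Of the ligands, 1 of 5 tested rose. CLCF1, a cytokine that signals through IL6ST and LIFR, rose by a log2 fold change of 2.32 (SE 0.353, adjusted p = 0.0326 from edgeR) and was higher in 4 of 4 backgrounds. Its levels in MDA-MB468 were 2.96, 31.5, 7.84 and 30.9 CPM (parental control, parental Acetalax, CE control, CE Acetalax), and in BT549 20.8, 41.8, 17.0 and 102 CPM. CNTF had 1.35 to 3.33 CPM and log2 ratios from -0.19 to 0.97 and was not called. OSM, the ligand of OSMR, was at most 0.092 CPM in all 8 libraries, and IL31 had 0 counts in each.

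Of the 5 receptors and 4 kinases tested, none was called. IL6R, the alpha receptor of IL6, nevertheless had the largest single ratio of the list. It had 0.905 CPM (44 counts) in MDA-MB468 parental control cells and 76.0 CPM (3693 counts) in parental cells with Acetalax, 84.0-fold more (62.5 to 116). In MDA-MB468 CE cells it had 2.63 and 10.2 CPM, 3.90-fold more (3.18 to 4.81). In BT549 it had 2.75 and 1.70 CPM in parental and 4.30 and 5.73 CPM in CE cells, so the backgrounds disagreed in direction (edgeR adjusted p = 0.298). IL27RA, a receptor that also uses IL6ST, had log2 ratios of 1.02 and 1.09 in MDA-MB468 and -0.28 and 0.31 in BT549. JAK2 was not called, with a log2 fold change of -0.53, an adjusted p of 0.112 from edgeR and a lower level in 4 of 4 backgrounds, as for the 29.5% of all genes above, and JAK3 had at most 3.13 CPM.

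**Figure D5:**
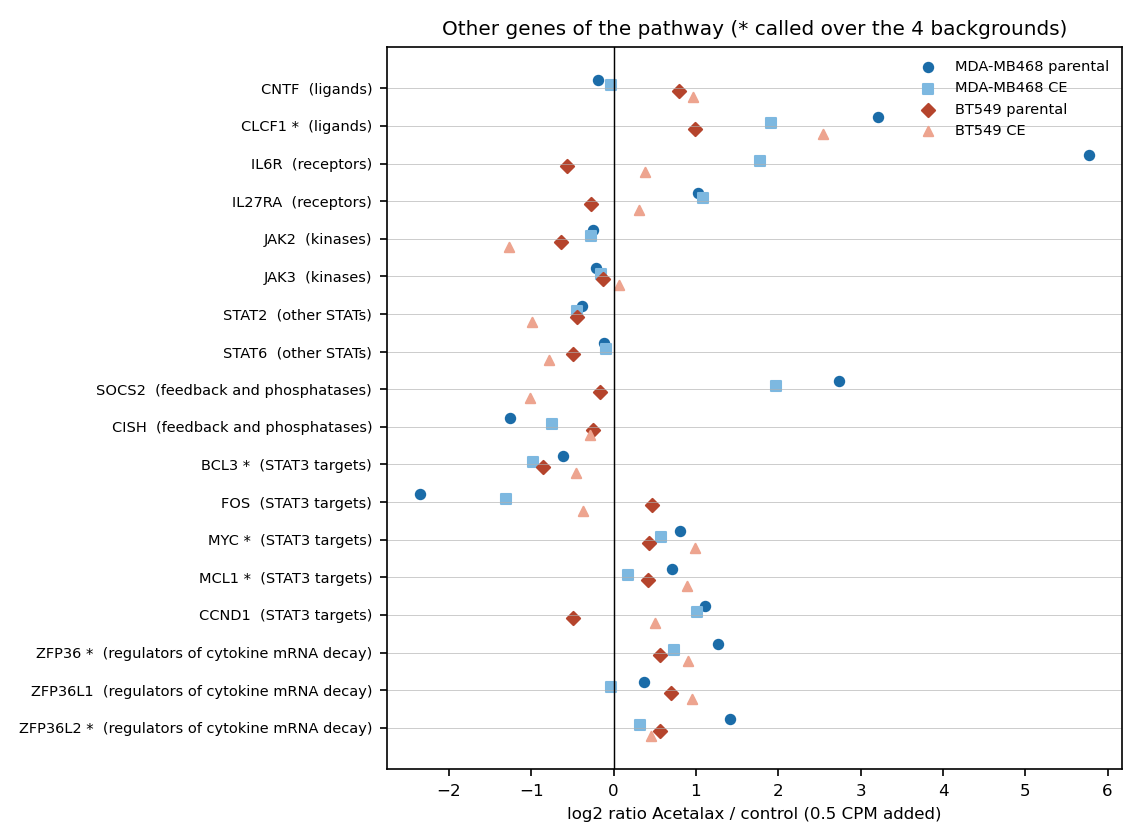
Log2 ratios of Acetalax to control (0.5 CPM added) in the 4 backgrounds for the other pathway genes named in the text, 1 pair of libraries per point, with an asterisk at the 6 genes called by edgeR over the 4 backgrounds. CLCF1, MYC, MCL1, ZFP36 and ZFP36L2 lie to the right of 0 in all 4 backgrounds and BCL3 to the left, while IL6R at 5.77 and SOCS2 at 2.74 stand out in MDA-MB468 parental cells.

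Of 6 other STAT genes and 14 genes of feedback and phosphatases tested, none was called. STAT2 had a log2 fold change of -0.48 (adjusted p = 0.0608 from edgeR), and in BT549 CE control cells it was at 109 CPM against 18.7 CPM in parental controls, 5.81-fold more (5.40 to 6.27). STAT6 had log2 ratios of -0.11 and -0.10 in MDA-MB468, which were -0.034 and -0.004 with TMM scaling, and of -0.50 and -0.78 in BT549. SOCS2, a suppressor better known from growth hormone signaling, differed between the lines. It was 9.21-fold higher in MDA-MB468 parental cells (6.96 to 12.4) and 4.53-fold higher in MDA-MB468 CE cells (3.66 to 5.66). In BT549 it was 1.13-fold lower in parental cells, within counting error (0.935 to 1.37), and 2.15-fold lower in CE cells (1.82 to 2.55). CISH, a further suppressor, had a log2 fold change of -0.87 (adjusted p = 0.0502 from edgeR). It had 20.5 CPM in control and 8.30 CPM in treated MDA-MB468 parental cells, whereas in BT549 it had 18 and 12 counts in parental and 19 and 10 counts in CE cells, ratios within counting error (0.285 to 1.42 and 0.235 to 1.28).

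Among 20 STAT3 targets tested, 2 rose and 1 fell. MYC rose by 0.79 on the log2 scale (SE 0.118, adjusted p = 0.0323) and MCL1, an antiapoptotic BCL2 relative, by 0.64 (SE 0.131, adjusted p = 0.0427), both by edgeR and both higher in 4 of 4 backgrounds. BCL3, an atypical NF-kB inhibitor family member, fell by 0.64 (SE 0.122, adjusted p = 0.0398 from edgeR) and was lower in 4 of 4. Of all genes averaging 1 CPM or more, 11.8% were higher and 29.5% lower in all 4 backgrounds with total counts as the scale, whereas the edgeR fit used TMM scaling. FOS and CCND1 were not called and differed in direction between backgrounds, with FOS at log2 ratios of -2.35 and -1.31 in MDA-MB468 and 0.46 and -0.38 in BT549. The liver acute-phase targets FGA, FGB, FGG, CRP, LBP, HP and SERPINA3 had a mean below 1 CPM, whereas SAA1 had 5.39 to 8.11 CPM and A2M 44.4 to 73.3 CPM in MDA-MB468, both near 0 in BT549 and neither of them called. The median log2 ratio over the targets averaging 1 CPM or more was 0.042, against -0.097 over all genes.

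Regulators of cytokine mRNA decay gave 2 rises among 7 genes tested. ZFP36, which binds AU-rich elements of cytokine mRNAs and promotes their decay, rose by 0.96 (SE 0.127, adjusted p = 0.0291) and its relative ZFP36L2 by 0.78 (SE 0.173, adjusted p = 0.0465), both by edgeR and both higher in 4 of 4 backgrounds. ZFP36L1 had a log2 fold change of 0.59 (adjusted p = 0.0728 from edgeR). ZFP36 went from 67.0 to 162 CPM in MDA-MB468 parental cells and from 78.8 to 148 CPM in BT549 CE cells, the backgrounds with the largest LIF ratios.

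Separate tests of parental cells, of CE cells and of CE against parental controls called no gene at all. With edgeR, Acetalax in parental cells gave 0.0% of 19693 genes (1710 at an unadjusted p under 0.05), Acetalax in CE cells 0.0% of 19693 (2311), and CE against parental controls 0.0% of 18377 (610), so no pathway gene was called in them. DESeq2 called 1, 3 and 1 pathway genes in these comparisons, among 90, 357 and 50 genes in all.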

How the data were processed

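RNA-seq counts of 8 libraries were analysed, 1 per condition, with conditions from the sample labels. The authors aligned the reads (pairs of 101 bases, polyadenylated RNA, a directional kit) to hg19 with STAR and deposited raw counts per gene from its GeneCounts option, with no normalization. The submitters' processing notes name STAR 2.7.11b. The annotation and the strand column are not given in the sources used here, so genes overlapping on opposite strands are uncertain. The table has 58154 rows for 55679 identifiers, each used 1 time (1392 were repeated, 3 with unequal counts, none of them described here). CPM used the total counts on genes, and FPKM the merged exons of GENCODE on hg19 coordinates.

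The 9 genes and all lists were chosen with earlier results of these data known. The 9 genes therefore have no test, and calls among the listed genes are not independent of this knowledge. Intervals used SciPy 1.17.1. Other pathway genes were tested with edgeR 4.0.16 (R 4.3.3; quasi-likelihood test, TMM scaling, filterByExpr, Benjamini-Hochberg adjustment, threshold 0.05), with the background as a block and, for CE against parental controls, the cell line. The script was tested on simulated data. Named were genes called by a test and, per role, the 2 genes with the largest median log2 ratio in size among those with 1 CPM or more on average. OSM, IL31, the acute-phase genes and the genes of the last part were named after their values were seen. Items that the rule would name but that are withheld are not reported here. Alternatives were pseudocounts of 0.1 and 1 CPM, TMM and median-of-ratios scaling, log2(FPKM+1), every gene with at least 1 count, DESeq2 1.42.0, and leaving out each background.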

Additional observations from a re-analysis of the deposited data

Results flagged for a closer look

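CE and parental control cells differed in opposite directions in the 2 lines for 7 of the 9 genes and for 45.0% of all 14030 genes averaging 1 CPM or more, on the log2 scale with 0.5 CPM added. With total counts as the scale, the counting interval excluded no change in both lines for 6 of the 7. For IL11 (log2 ratios of 0.493 in MDA-MB468 and -0.276 in BT549) it included no change in BT549. The IL6ST log2 ratios of 0.109 in MDA-MB468 and -0.06 in BT549 were 0.048 and -0.013 with TMM scaling. With median-of-ratios scaling they were 0.059 and -0.008, so whether IL6ST differed beyond counting error depends on the scaling. The ratio of CE to parental cells in MDA-MB468 minus that in BT549 was 2.84 for LIF, 1.43 for IL6 (1.425 before rounding), 0.846 for PIM1, 0.638 for LIFR, 0.169 for IL6ST and -0.183 for STAT3. LIF, IL6, PIM1, LIFR and IL6ST were higher in CE cells of MDA-MB468 and lower in CE cells of BT549, and STAT3 was the reverse. Each line contributes 1 pair of libraries, so these differences were not tested.

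OSMR was higher with Acetalax in both MDA-MB468 pairs and lower in both BT549 pairs, with a mean log2 ratio 0.739 higher in MDA-MB468. This difference was not tested either, and the BT549 CE ratio changed its sign with the scaling.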

How the results depend on the processing

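Of 270 recomputed log2 ratios of the 9 genes, 215 moved by less than counting error (LIFR in MDA-MB468 CE cells crossed 0 within it, at 0.054 with TMM and 0.045 with median-of-ratios scaling), 53 moved by more in the same direction and 2 turned: OSMR with Acetalax in BT549 CE cells was 0.165 with TMM and 0.152 with median-of-ratios scaling. The count of genes at least 2-fold higher was 2 with log2(FPKM+1) in MDA-MB468 parental cells, and 4 with TMM or median-of-ratios scaling and 1 with log2(FPKM+1) in MDA-MB468 CE cells. The count lower in BT549 CE cells was 0 with TMM or median-of-ratios scaling, and the count higher in MDA-MB468 CE against parental controls was 1 with a pseudocount of 0.1 CPM.

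For Acetalax over the 4 backgrounds, edgeR on every gene with at least 1 count called 3585 genes (22 of the pathway) and DESeq2 2930 (12). Leaving out each background in turn gave 0 to 554 genes (0 to 5 of the pathway), and 0 came without MDA-MB468 parental cells. For parental cells these were 643 (9), 90 (1) and 0 to 182 (0 to 5), for CE cells 1080 (9), 357 (3) and 0 to 207 (0 to 1), and for CE against parental controls 45 (0) and 50 (1), where leaving out a background leaves no residual degrees of freedom. The causes were not tested. Treated and control libraries were paired by background, for which the fit of Acetalax held a term. No further pairing was possible because each condition was 1 library. Precision is limited by 1 library per condition and, for IL6 in MDA-MB468 and IL11, by low counts.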

Other observations

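Further genes of the pathway list differed between the lines or between backgrounds. They were chosen after their values were seen and have no test. IL31RA, the receptor of IL31, had 29.9 to 55.5 CPM in the BT549 libraries and at most 0.0412 CPM in MDA-MB468. TIMP1, an inhibitor of matrix metalloproteinases, had 164 CPM in BT549 parental control cells and 536 CPM in CE control cells, and in MDA-MB468 21.7 and 41.8 CPM. CEBPD, a C/EBP transcription factor, had 123 CPM in BT549 CE control cells and 253 CPM after Acetalax, and in MDA-MB468 CE cells 30.5 and 14.8 CPM. BCL6, a transcriptional repressor, was lower with Acetalax in MDA-MB468 (58.3 and 23.9 CPM in parental cells, 52.4 and 16.0 CPM in CE cells) and higher in BT549 (62.5 and 87.3 CPM in parental cells, 51.8 and 101 CPM in CE cells).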
